A study of Mus musculus with 6 samples.

Results

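The genes described here encode the proteins of the cytosolic ribosome, the particle that translates nuclear-encoded mRNA. They were chosen by name: every gene with a probe set whose single symbol in the array's annotation was Rpl or Rps followed by a number (with an a, x, y or l ending where it has one), Rplp0, Rplp1, Rplp2 or Rpsa. This gave 49 of the 18193 genes that have a probe set with 1 symbol, 23 of the small (40S) and 26 of the large (60S) subunit, read by 105 of the array's probe sets. No measured value entered the choice.

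RNA came from mice of the Slc6a4 JD60 line, on a mixed FVB and c57/bl6j background, which carry a bacterial artificial chromosome transgene, so that a tagged ribosome is made where the serotonin transporter gene Slc6a4 is active. Translating ribosome affinity purification (TRAP) pulls the tagged ribosomes and the mRNA on them out of a lysate. There were 3 IP samples of this ribosome-bound RNA and 3 unbound samples, made from what the same lysates kept, which stand for the whole tissue. Both groups came from midbrain and brainstem without cerebellum, from male and female adults of 6 to 12 weeks that all carried the transgene, with 5 mice pooled for a sample. No mice without the transgene are among these samples, and the groups differ in cell type and in ribosome binding at once, which cannot be told apart.

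The small subunit reads the mRNA and the large subunit joins the amino acids. One copy of nearly every ribosomal protein is built into each particle, so their genes are active together in all cells. Their mRNAs are short and abundant and belong to the TOP mRNAs, which start with a C and an unbroken run of pyrimidines (C or T) at the cap. Through this run the kinase mTOR and the protein Larp1 set how many of these mRNAs are on ribosomes and how many are held back. Ribosomal protein genes also have many processed pseudogenes, near copies that lie elsewhere in the genome, and array probes can match both.

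Many of the start regions show a pyrimidine run in or near them, and they are printed for a choice of genes, all of which have one. The search did not ask for a C at the first base of the mRNA, so its counts are not counts of TOP mRNAs. Genes without a run are not printed. Rps27l, described below, is not printed either. It has a run of 9 near listed start 1 and none near listed start 2. RefSeq promoter entries (GRCm38.p6) were found for 43 of the 49 genes. A run of at least 8 pyrimidines on the sense strand, touching the window from 20 bases before to 30 bases after a listed start, was present in 28 of the 43 (65.1%), against 26.4% of the 27025 genes with an entry. The letters CCGGAAG, searched on both strands over the whole promoter entry, were present in 21 of the 43 (48.8%), against 9.93% of all genes with an entry. TATAAA, searched the same way, was found in 6 of the 43 (14%), against 15.7% of all genes. The lines below run 5′ to 3′ from 25 bases before the listed start to 30 bases after it, with the longest such run in capitals, and none of these matches shows that a factor binds there.
Rps10, chr17:27635215-27635269, minus strand: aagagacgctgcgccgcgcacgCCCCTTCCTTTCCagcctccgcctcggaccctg
Rps27, chr3:90213619-90213673, minus strand: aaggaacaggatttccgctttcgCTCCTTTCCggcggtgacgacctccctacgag
Rps18, chr17:33955636-33955690, minus strand: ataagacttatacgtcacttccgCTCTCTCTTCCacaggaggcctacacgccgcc
Rps6, chr4:86857338-86857392, minus strand: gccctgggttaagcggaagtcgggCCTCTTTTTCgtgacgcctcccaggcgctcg
Rpl14, chr9:120571492-120571546, plus strand: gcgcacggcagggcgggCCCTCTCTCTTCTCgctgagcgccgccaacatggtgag
Rpl35, chr2:39005102-39005156, minus strand: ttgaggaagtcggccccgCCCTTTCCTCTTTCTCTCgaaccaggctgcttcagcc
Rplp2, chr7:141447626-141447680, plus strand: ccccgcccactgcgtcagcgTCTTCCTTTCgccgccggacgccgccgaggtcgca
Rpl38, chr11:114668555-114668609, plus strand: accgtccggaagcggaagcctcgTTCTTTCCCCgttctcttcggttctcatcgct
Rpl22l1, chr3:28805483-28805537, plus strand: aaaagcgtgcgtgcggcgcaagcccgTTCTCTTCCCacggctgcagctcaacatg
Rpl39, chrX:37085193-37085247, minus strand: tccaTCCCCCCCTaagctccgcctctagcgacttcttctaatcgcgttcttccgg
The run spans the listed start in 8 of these, begins just after it in Rpl22l1 and ends well before it in Rpl39. The 27 tested genes with a run had a median log2 change of 1.06 (range -0.36 to 2.77, the highest being an estimate for Rps27 described below). The 12 without one had a median of 0.69 (range 0.32 to 1.34). These are descriptions of overlapping groups, and no test was made of them.

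Values are log2 expression per probe set, after the IP arrays had been shifted by -0.23 so that the 18 biotin hybridisation control probe sets averaged the same in both groups. Each gene was read by its brightest probe set. Testing asked for a log2 value of 5, called the detection limit here, on 3 or more of the 6 arrays, and 45 of the 49 genes passed. A gene was called, and is said to have risen or fallen, where limma's test gave an adjusted p under 0.05 (Benjamini-Hochberg over all 10581 genes tested) and the change was at least 2-fold. The marker genes followed the labels. Slc6a4 had a mean log2 level of 14.20 in IP (SD 0.12, n = 3), against 9.05 in unbound RNA (SD 0.07, n = 3), and all 8 serotonin neuron markers rose. All 8 astrocyte and all 7 oligodendrocyte markers tested fell, and their log2 values summed over a list lay between 47.6 and 48.6 (astrocytes) and between 57.6 and 57.8 (oligodendrocytes) in IP, against 75.8 to 79.3 and 79.2 to 81.9 in unbound RNA. Of these markers, 4 of the astrocyte list and 1 of the oligodendrocyte list stayed under that limit on each of the IP arrays. Of the other lists, 1 of 6 microglial markers rose and 5 fell, all 6 tested markers of other neurons and both tested endothelial markers fell, and neither red blood cell marker reached the limit. Ribosomal protein mRNA is made in every cell type, so the part that glial RNA has in the changes below was not tested. A larger share of cells with such mRNA cannot be told apart from more of it per cell.

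Ribosomal protein genes were higher in IP almost as a body. Of the 45 tested, 44 had a positive log2 change, with a median of 0.89 (1.86-fold), while the median of all 10581 tested genes was -0.65. Of the 45, 18 (40%) rose by at least 2-fold, against 10.4% of all tested genes, and 0 fell, against 41.1% (1 was lower at an unadjusted p under 0.05). With no minimum fold, 43 were higher at an adjusted p under 0.05, against 22.0% of all tested genes, and 1, Rpl39, was lower, against 56.9%. The 3 IP arrays lay above all 3 unbound arrays for 43 genes, against 23.9% of all tested genes. These directions depend on how the separately normalised groups are set against each other. Scaling by the spiked poly-A RNAs put all 44 genes then tested below 0, with a median of -1.47, but also moved the median of all genes to -3.06. Under the biotin scaling the 18 include Rps27, which passed the filter through IP alone. Of all tested genes, 1725 had a group mean under the detection limit. The 10.4% and 41.1% thus include genes whose direction the filter fixed. With means under the limit set to it, the median of all tested genes was -0.57.

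**Figure D1:**
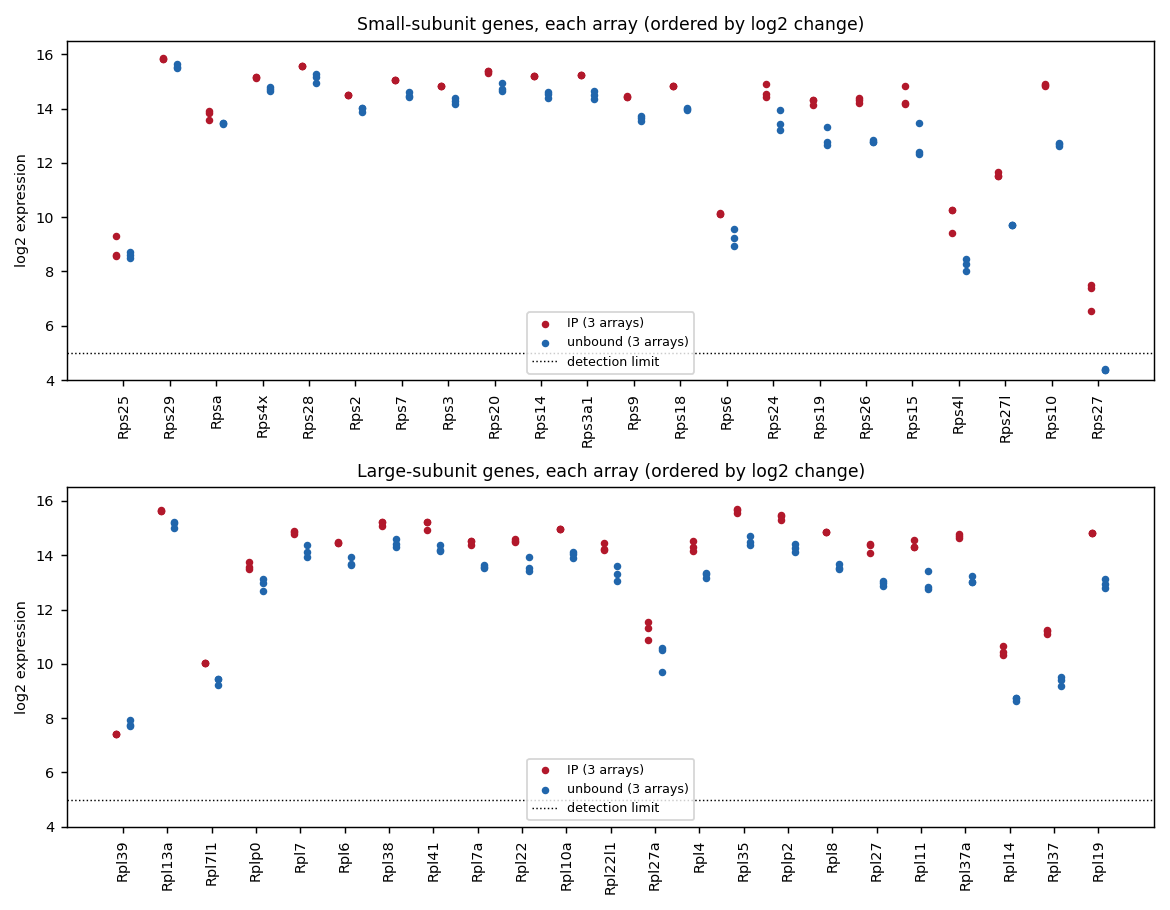
Log2 expression (vertical axis) of each of the 45 tested ribosomal protein genes on every array, the 3 IP arrays left and the 3 unbound arrays right, with small-subunit genes above and large-subunit genes under them, ordered by log2 change. The IP points lie above the unbound points for every gene but Rps25, where they overlap, and Rpl39, where they lie under them, and the unbound points of Rps27 lie under the detection limit of 5.

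The scalings also move all other genes, so the family is set against them here. Of all tested genes, 1104 rose and 4354 fell under the biotin scaling, against 2507 and 2479 after quantile normalisation, 3563 and 2067 with arrays centred on the median of all probe sets, 2581 and 2673 with the median of expressed ones, and 48 and 9768 under the poly-A scaling. Under the biotin scaling all 45 genes lay above the median of all tested genes, and the family's median lay 1.54 above it on the log2 scale. All 45 also lay above that median with no scaling and with each array centred on a median. After quantile normalisation over all 6 arrays 44 of 45 did, at a distance of 0.61, and under the poly-A scaling 44 of 44 did. Most of these probe sets are bright, so tested genes with a mean level of 12 or more over the 6 arrays are the nearer background. Of those 900 genes, 17.8% rose, 43.8% were higher at an adjusted p under 0.05, and their median log2 change was 0.20. Of the 35 ribosomal protein genes among them, 13 rose, 35 were higher at an adjusted p under 0.05, and the median was 0.89.

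**Figure D2:**
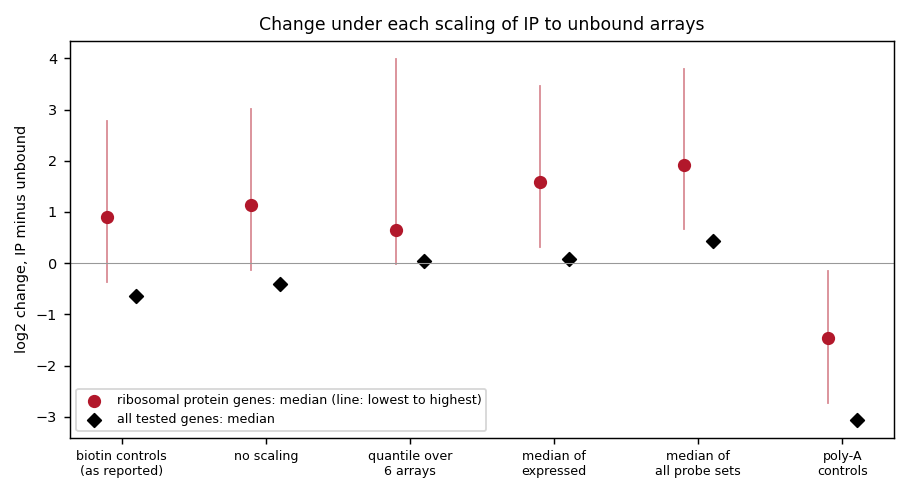
Median log2 change, IP minus unbound, of the ribosomal protein genes (circles, with a line from the lowest to the highest gene) and of all tested genes (diamonds) under 6 scalings of the IP to the unbound arrays. The family's median runs from -1.47 under the poly-A controls to 1.92 with arrays centred on the median of all probe sets, and it lies above the median of all tested genes in each.

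Both subunits took part. Of 22 tested small-subunit genes, 8 rose, 0 fell, and 13 more were higher at an adjusted p under 0.05 with a change under 2-fold. Of 23 tested large-subunit genes, 10 rose, 0 fell, and 12 more were higher under 2-fold. Of all tested genes, 10.4% rose, 41.1% fell and 22.0% were higher at an adjusted p under 0.05 with no minimum fold. Of those with a mean level of 12 or more, 17.8% rose, 11.4% fell and 43.8% were higher with no minimum fold. The median log2 change was 0.77 for the small and 0.97 for the large subunit, values that turned to -1.62 and -1.39 under the poly-A scaling. The difference between the subunits was not tested. The 25 genes higher by less than 2-fold spanned log2 changes from 0.28 to 0.99, so the 2-fold limit splits a continuous range (the plot of changes by subunit).

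**Figure D3:**
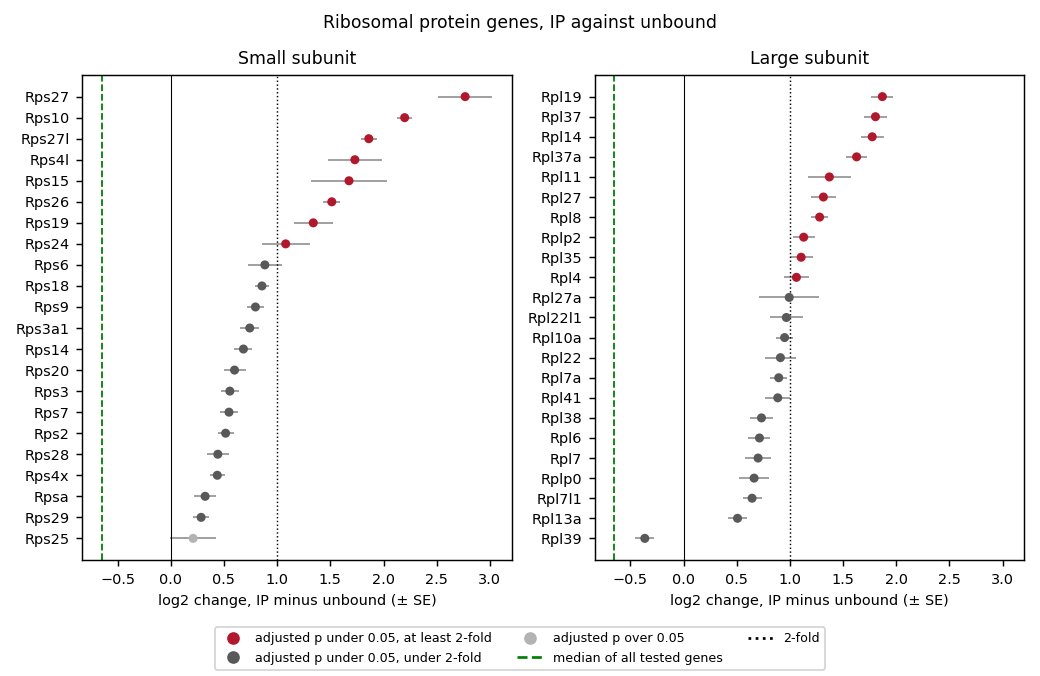
Log2 change, IP minus unbound, of each tested ribosomal protein gene with its standard error from limma (3 arrays per group), small subunit left and large subunit right, coloured by call. The genes run from -0.36 (Rpl39) to 2.77 (Rps27) with no gap at the 2-fold line (dotted), all to the right of the median of all tested genes at -0.65 (dashed). The point of Rps27 is an estimate, since its unbound values lie under the detection limit, and its bound is 4.43-fold.

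In the small subunit the smallest adjusted p was that of Rps10, a protein of the 40S head that is marked with ubiquitin when ribosomes stall. Its log2 values were 14.84, 14.88 and 14.89 in IP, against 12.61, 12.68 and 12.73 in unbound RNA. The groups were more than 2 log2 units apart with no overlap, a log2 change of 2.2 ± 0.07 SE (4.59-fold, limma adjusted p = 1.65e-06). All 5 of its tested probe sets rose, by 1.91 to 2.49. Rps27, a zinc-binding protein of the small subunit, had the largest estimated change, 2.77. It measured 6.55, 7.39 and 7.50 in IP, against 4.40, 4.37 and 4.36 in unbound RNA. All unbound arrays lay under the detection limit, so Rps27 passed the filter through IP alone, its direction was fixed by the filter, and IP was at least 4.43-fold higher.

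Rps27l encodes a near copy of the Rps27 protein and is induced by p53. It measured 11.66, 11.53 and 11.53 in IP, against 9.71, 9.70 and 9.73 in unbound RNA. The change was 1.86 (3.63-fold, limma adjusted p = 3.35e-06), and its other probe sets gave changes up to 2.17. Rps4l, a gene similar to Rps4x, measured 10.25, 9.43 and 10.26 in IP, against 8.01, 8.29 and 8.45 in unbound RNA. Its lowest IP array was still above its highest unbound array, and it rose by 1.73. Rps4x itself, on the X chromosome, was higher by 0.44, under the 2-fold limit.

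Rps26, which contacts the mRNA where it leaves the small subunit, rose by 1.51 (adjusted p = 1.12e-05). Rps15, whose tail reaches the decoding centre, had the largest standard error of the 45. It measured 14.84, 14.16 and 14.21 in IP, against 13.46, 12.40 and 12.33 in unbound RNA. Replicate 1 was the highest in both groups, and the change was 1.68 ± 0.36 SE (adjusted p = 0.00539). Rps19, the gene most often mutated in the inherited anaemia named after Diamond and Blackfan, rose by 1.34, and Rps24, another gene of that disease, by 1.08 (adjusted p = 0.00479). The call for Rps24 was lost without IP replicate 1 (0.94), without unbound replicate 2 (0.92), after quantile normalisation (0.75) and with the mean of its probe sets (0.14).

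The low end of the small subunit is given here by each gene's brightest probe set. There, 4 genes were higher by less than 0.5 on the log2 scale at an adjusted p under 0.05. Rps29, a small zinc-binding protein of the 40S head, measured 15.88, 15.83 and 15.83 in IP, against 15.65, 15.50 and 15.52 in unbound RNA, a change of 0.28 (adjusted p = 0.0146). Rpsa, also known as a laminin receptor, was higher by 0.32, but its change was -0.020 after quantile normalisation. Rps4x and Rps28, a head protein, were both at 0.44, and Rps2, which lies by the mRNA entry site, was next at 0.52. Other probe sets gave larger changes, 0.51 and 0.63 for Rps29 and 0.85 and 0.63 for Rps28, so their place depends on the probe set. Rps25, a head protein used for initiation at viral internal entry sites, was the 1 gene with no difference called in either direction. It measured 8.56, 8.60 and 9.30 in IP, against 8.51, 8.71 and 8.60 in unbound RNA, with overlapping groups and a change of 0.21 ± 0.21 SE (adjusted p = 0.393) that was -0.031 without IP replicate 3.

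In the large subunit Rpl19, which reaches across to the small subunit, had the largest change. It measured 14.80, 14.82 and 14.81 in IP, against 13.11, 12.78 and 12.93 in unbound RNA. That is a rise of 1.87 ± 0.10 SE (3.65-fold, limma adjusted p = 1.2e-05) with the groups far apart. Rpl37 and Rpl37a, both zinc-binding proteins, rose by 1.80 and 1.63, and Rpl14 by 1.77. Rpl11, which with Rpl5 binds the 5S rRNA and can hold back Mdm2, measured 14.57, 14.29 and 14.29 in IP, against 13.44, 12.76 and 12.84 in unbound RNA. It rose by 1.37 with replicate 1 highest in both groups. Rpl5 was not analysed here. Rpl27 rose by 1.31.

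Of the stalk at which elongation factors dock, Rplp2 rose by 1.13 (15.30, 15.46 and 15.44 in IP, against 14.28, 14.13 and 14.41 in unbound RNA). Its base Rplp0 was higher by 0.66, under 2-fold (adjusted p = 0.00508), and Rplp1 was not analysed here. Of the proteins in and around the tunnel through which the new chain leaves, Rpl19, Rpl35 (1.11) and Rpl4 (1.06) rose. The calls for Rplp2, Rpl35 and Rpl4 were lost after quantile normalisation, at 0.83, 0.79 and 0.77. Rpl4 also lost its call without IP replicate 1 (0.96).

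Rpl39, a very small protein inside that tunnel, was the 1 exception in direction. It measured 7.42 on all 3 IP arrays, against 7.94, 7.69 and 7.74 in unbound RNA, a change of -0.36 ± 0.09 SE (adjusted p = 0.00998), under the 2-fold limit. The sign was positive after quantile normalisation (0.47) and with arrays centred on either median (0.66 and 0.32). With 3 identical IP values, the error rests on the unbound arrays alone.

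Rpl10a is the large-subunit protein to which the tag of TRAP lines is fused. It measured 14.97, 14.97 and 14.98 in IP, against 14.12, 13.91 and 14.04 in unbound RNA. The groups did not overlap, and the change of 0.95 ± 0.08 SE (1.93-fold, adjusted p = 8.38e-05) was the 11th from the lowest of the 23 large-subunit genes. Whether this probe set also reads RNA from the transgene was not analysed here. Its change was thus near the subunit's median of 0.97.

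Paralogues behaved in 2 ways. Rpl39l and Rpl3l, known from testis and from heart and skeletal muscle, did not reach the detection limit on any array and were not tested. Rpl12 and Rps16, which are not on the paralogue list, were not tested for the same reason. Their single probe sets measured 1.98 in IP, against 3.35 (Rpl12) and 2.17 (Rps16) in unbound RNA. Whether these probe sets read the mRNA was not analysed here, so the values do not show that it is absent. The levels of Rpl39l were 2.82 in IP and 2.36 in unbound RNA, and those of Rpl3l were 1.98 and 2.17. Rpl22l1, the paralogue of the RNA-binding protein Rpl22, measured 14.44, 14.19 and 14.22 in IP, against 13.59, 13.06 and 13.30 in unbound RNA. Its change of 0.97 and that of Rpl22, 0.91, were both just under 2-fold (adjusted p = 0.00150 and 0.00155). Rpl7l1 was higher by 0.64 and Rpl7 by 0.70. By these brightest probe sets both pairs gave values within 1 standard error of each other, but other probe sets of Rpl7 gave 1.49 and 1.77, both called, those of Rpl7l1 gave 0.027 and 0.52, and those of Rpl22 gave -0.05 and 1.37. Rps27l and Rps27 cannot be compared, since the value of Rps27 is a bound. Rpl22, Rpl22l1, Rpl10a and Rpl41 were called higher with no scaling.

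The choice of probe set moved the values of single genes. Over the 87 tested of 105 probe sets, each by itself, 45 (51.7%) were higher by at least 2-fold, against 10.4% of all 16835 tested probe sets, and 2 were lower, against 43.0%. Probe sets with an s or x in the suffix, which by design can match several transcripts, had 21 of 41 higher with a median of 1.08 (11.9% of all tested probe sets of that kind were higher). Those without had 24 of 46 higher with a median of 1.10, against 10.1%. Among 20 genes with more than 1 tested probe set, the lowest and highest change within a gene differed by a median of 0.61 log2 units. The ranges of Rps24 and Rpl41 include a probe set under the detection limit in IP. The median standard error over the 45 genes, 0.10, is an unlike measure. For Rps15 the probe sets differed by 0.21, while its change ran from 1.46 to 2.04 with 1 array left out. In 11 of the 20 the brightest probe set gave the smallest change, and in 3 it gave the largest.

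**Figure D4:**
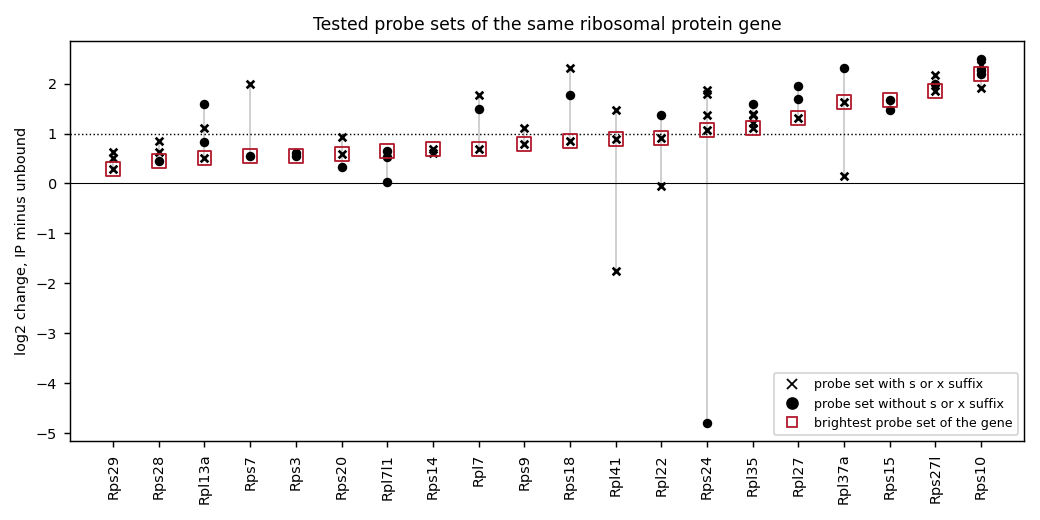
Log2 change, IP minus unbound, of every tested probe set of the 20 ribosomal protein genes that have more than 1, with crosses for an s or x suffix, dots for others and a square on the brightest, which stands for the gene. In 11 of the 20 genes the square is the lowest symbol, and 1 probe set each of Rps24 and Rpl41 lies far under 0.

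Rps18, of the 40S head, shows this spread. Its brightest probe set measured 14.83, 14.84 and 14.84 in IP, against 14.02, 13.95 and 13.97 in unbound RNA, a change of 0.86. Another measured 13.37, 13.48 and 13.51 in IP, against 11.10, 11.09 and 11.25 in unbound RNA, a change of 2.31. The IP values of the brightest differ little between arrays, and both probe sets separate the groups. Rps7 likewise had 0.55 by its brightest probe set and 2.00 by the other, and Rpl13a had 0.51 to 1.60 over 4 probe sets. Rpl37a had 0.15 to 2.31 over 3. Rpl22 had 1.37, called, and -0.05 beside the 0.91 of its brightest.

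The 2 probe sets called lower lay under the detection limit in IP, so the filter fixed their direction. The dim probe set of Rps24 measured 2.16, 2.04 and 2.04 in IP, against 7.22, 6.73 and 6.68 in unbound RNA, at least 3.68-fold lower, while the other 4 tested probe sets of the gene rose by 1.08 to 1.88. That of Rpl41, the shortest ribosomal protein, measured 4.61 on all IP arrays, against 6.54, 6.22 and 6.35 in unbound RNA, at least 2.59-fold lower. The other 2 tested probe sets of Rpl41 were higher, by 0.89 and 1.48. Which part of each transcript these probe sets match was not analysed here. Another 110 probe sets name several genes of which at least 1 fits the naming rule, 28 such symbols being on no single-symbol probe set. Of the 98 tested among them, in a separate fit over 18483 probe sets, 46 were higher and 4 lower with a median of 0.98. Among all tested single-symbol probe sets, in their own fit, the shares were 10.4% and 43.0%. The count of 98 was added after the data had been seen.

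The values of replicates differed little for most genes, in part because some IP values were tied. The median SD of a ribosomal protein gene was 0.07 in IP and 0.12 in unbound RNA, and 3 of the 45 genes had the same value on all IP arrays. Further genes were tied on some IP arrays, such as Rpl10a on IP replicates 1 and 2 and Rps27l on 2 and 3. For tied genes a small SD or standard error is no measure of how well replicates agree. The source of the ties was not tested. Array medians over the 45 genes were 14.61, 14.50 and 14.48 in IP, against 13.56, 13.42 and 13.46 in unbound RNA. Unbound replicate 1 exceeded both other unbound arrays by at least 0.3 for Rpl11, Rpl22, Rps15, Rps19, Rps24 and Rps6. In 5 of these 6 genes IP replicate 1 was also the highest of its group, which was so for 13 of all 45. The labels pair IP and unbound samples by number, and blocking on the pairs gave the same counts, 18 higher and 0 lower.

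Other genes of ribosome production gave counts that depend on the scaling. Of 38 tested assembly factors, which build the particles in the nucleolus, 3 rose, against 10.4% of all tested genes, and 4 fell, against 41.1%, with a median of 0.01. After quantile normalisation 10 were higher, a share near the 23.8% of all tested genes, and 1 was lower, against 2479 of all 10528. Their median was then 0.55, beside 0.65 for the ribosomal proteins and 0.04 for all tested genes. With arrays centred on the median of all probe sets 20 were higher, against 33.8% of all tested genes, and 0 lower, against 2067 of all 10547. Under the poly-A scaling the median was -2.35, against -3.06 for all tested genes. Utp6 fell by 1.63 and Wdr43 by 1.38, and Heatr1 was at least 2.46-fold lower in IP. Of 12 genes of RNA polymerase I, which makes ribosomal RNA, 2 rose (Taf1d by 1.80 and Polr1d by 1.37). The 5 called lower, a share near the background of 41.1%, were all under the detection limit in IP, so the filter fixed their direction and their count shows nothing further. The list had a median of -0.52 (-0.38 with genes under the limit set to it) that was positive after quantile normalisation (0.43) and with either median centring (0.17 and 0.72). Taf1a was at least 5.07-fold lower, while the bounds of Taf1c (1.96-fold), Polr1a (1.46-fold) and Polr1b (1.33-fold) fall short of 2-fold.

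Among 16 other TOP mRNAs, 3 rose, against 10.4% of all tested genes and 17.8% of those with a mean level of 12 or more, so this count is near the background of bright genes. Of the 16, 1 fell, against 41.1%, and 11 were higher at an adjusted p under 0.05 with no minimum fold, against 22.0% of all tested and 43.8% of bright genes, with a median of 0.43 (-1.93 under the poly-A scaling). Fau, which encodes a ribosomal protein fused to a ubiquitin-like one and which the naming rule leaves out, rose by 1.78. Naca, which binds new chains at the tunnel exit, rose by 1.47, and the poly(A)-binding protein gene Pabpc1 fell by 1.34. Of 14 tested regulators of TOP mRNAs, 6 were called lower, near the 41.1% of all tested genes, and limma called 0 higher. With no minimum fold, 2 were higher at an adjusted p under 0.05, Rheb by 0.50 and Eif4e by 0.23, against 22.0% of all tested genes. At that threshold 9 were lower, against 56.9%. Mlst8 and Tsc2 among the 6 were under the detection limit in IP, and the bound of Tsc2 is 1.30-fold. The list had a median of -0.72 (-0.68 with genes under the limit set to it), close to the -0.65 of all genes. With arrays centred on the median of all probe sets it was 0.32, against 0.44 for all genes. Of the 13 regulators then tested, 2 were higher, against 33.8% of all genes, and 2 lower. Tia1 fell by 3.65, the mTOR inhibitor Deptor fell by 3.21, and Mlst8, a subunit of the mTOR complexes, was at least 3.88-fold lower. Mtor itself fell by 1.76, and Larp1 was lower by 0.74, under the 2-fold limit (limma adjusted p = 0.00958).

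The mitochondrial ribosome, a separate particle whose proteins are also made in the cytosol, gave values close to those of the cytosolic one. Of 76 tested genes, 33 (43.4%) rose, against 10.4% of all tested genes, and 0 fell, against 41.1%. With no minimum fold, 60 were higher and 6 lower at an adjusted p under 0.05, against 22.0% and 56.9% of all tested genes. The median was 0.90 (-1.46 under the poly-A scaling and 0.55 with the mean of probe sets). Mrpl54 rose by 2.67, Mrpl43 by 2.46 and Mrpl33 by 2.32. The share of genes that rose, 40% of the cytosolic and 43.4% of the mitochondrial proteins, was not tested for a difference, and after quantile normalisation the medians were 0.65 and 1.25.

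**Figure D5:**
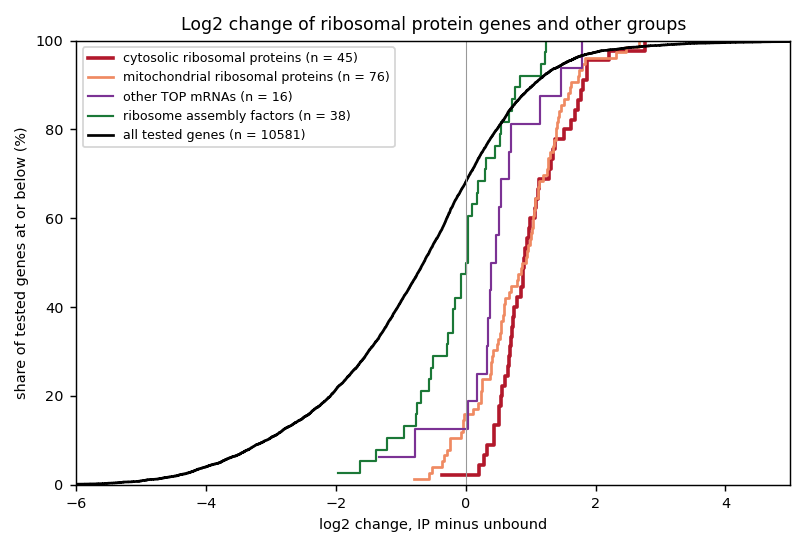
Share of tested genes (vertical axis, percent) at or below each log2 change, IP minus unbound, for cytosolic ribosomal proteins (n = 45), mitochondrial ribosomal proteins (n = 76), other TOP mRNAs (n = 16), ribosome assembly factors (n = 38) and all tested genes (n = 10581). The curves of both ribosomes lie close together and to the right, with medians of 0.89 and 0.90, while the median of the assembly factors (0.01) lies between them and all genes (-0.65).

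Within the cytosolic ribosome, lists by position or disease gave shares on both sides of the 40% of the family. Of all tested genes, 10.4% rose. Of 9 tested proteins of the 40S head, 3 (33.3%) rose (Rps10, Rps15 and Rps19), with a median of 0.60. Of 4 tested proteins of the exit tunnel 3 rose, named above. Of 11 tested genes mutated in Diamond-Blackfan anaemia, 8 (72.7%) rose, of which Rps27 passed the filter through IP alone. The list had a median of 1.31. All 11 were higher at an adjusted p under 0.05, as were 43 of the 45 family genes and 22.0% of all tested genes. That count is near the family's own share. Under the poly-A scaling the medians of the head and the anaemia lists were -1.76 and -1.15. Rps27, Rps10 and Rps26 had the largest estimated changes of the anaemia list, that of Rps27 being known only as a bound. These lists were made with earlier results of these data known, and their counts are not independent evidence.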

How the data were processed

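Per the labels, 20 ng of total RNA per sample went through the Affymetrix two-cycle amplification onto 6 arrays of 45101 probe sets. The deposited log2 values were made by the authors with GCRMA, one group at a time (per the submitters' processing notes and design text, which name no version). The number of arrays limits the precision. IP values were shifted by -0.23, following the design text's advice to use the 18 biotinylated controls. Of the probe sets, 34945 had 1 symbol and 932 several (not used). All 49 genes were found by Entrez ID in RefSeq (GRCm38.p6), with 0 symbols changed. limma 3.58.1 (R 4.3.3) was fitted to group alone over all 10581 genes, and over 16835 probe sets, two-sided, and checked on simulated data. Bounds set dim values to the limit of 5. Figures used matplotlib 3.10.9.

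Same-numbered IP and unbound samples deviated together (r = 0.27, 0.16 and 0.10 across all tested genes, 0.52, 0.23 and 0.32 across the 45), each over 0.1, so the numbers given by the labels were taken as pairs. IP 3 correlated more with unbound 2 (0.21 and 0.54) than with unbound 3, so these values alone do not settle the pairing. Genes named were Rpl10a, the stalk, 5S and paralogue genes, the 6 highest and 6 lowest changes of each subunit, untested genes, genes with probe sets of opposite sign, and up to 3 of each list; others were added where a count needed them. The genes and lists were chosen with earlier results of these data known. Alternatives covered scaling, filter, probe set choice, identical values, block, variance trend and leaving out each array.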

Additional observations from a re-analysis of the deposited data

How the results depend on the processing

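The count of ribosomal protein genes that rose, 18, was 44 with arrays centred on the median of all probe sets, 42 with the median of expressed ones, 0 under the poly-A controls and 43 with no minimum fold, and 16 to 21 with 1 array left out. The count that fell, 0, was 34 under the poly-A controls, 1 with no filter, 1 without s or x probe sets, 1 with no minimum fold, and 0 with any array left out. Of probe sets, 45 rose, and 83, 79, 0 and 80 did in the order of the first sentence, 24 without s or x probe sets (fewer were tested), and 42 to 48 with 1 array left out. Those that fell, 2, were 1 after quantile normalisation, 1 with the median of all probe sets, 52 under the poly-A controls, 5 with no filter, 0 with the filter at log2 7, 1 without s or x probe sets, 1 without identical values, and 0 to 2 with 1 array left out, since without an unbound array 2 cannot reach the 3 arrays the filter asks for. The family's median, 0.89, was 1.13 with no scaling, 0.65 after quantile normalisation, 1.92 and 1.58 with the medians of all and of expressed probe sets, -1.47 under the poly-A controls, 1.03 without s or x probe sets, and 0.85 to 0.92 with 1 array left out. Its distance from the median of all genes, 1.54, was 0.61 after quantile normalisation, 1.14 with no filter, 1.43 with the filter at 7, 1.45 with the mean of probe sets, 1.68 without s or x probe sets, 1.45 without identical values, and 1.28 to 1.57 with 1 array left out. In the order of the scalings above, the small-subunit median, 0.77, was 1.00, 0.46, 1.79, 1.46 and -1.62, with 0.64 for the mean of probe sets and 0.71 to 0.79 with 1 array left out. The large-subunit median, 0.97, was 1.2, 0.77, 1.99, 1.65 and -1.39, with 1.10 without s or x probe sets and 0.89 to 1.06 with 1 array left out. The replicate block left both gene counts at 18 and 0 and the probe set counts at 45 and 2, and it changed the call of no named gene.

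Signs of single genes turned mainly under the poly-A controls. Small-subunit changes were then -0.16 (Rps10), -0.68 (Rps15), -1.02 (Rps19), -1.28 (Rps24), -2.15 (Rps25), -0.85 (Rps26), -0.50 (Rps27l), -1.92 (Rps28), -2.07 (Rps29), -1.84 (Rps2), -0.63 (Rps4l), -1.92 (Rps4x) and -2.04 (Rpsa). Large-subunit changes were -1.41 (Rpl10a), -0.99 (Rpl11), -1.85 (Rpl13a), -0.59 (Rpl14), -0.49 (Rpl19), -1.39 (Rpl22l1), -1.45 (Rpl22), -1.04 (Rpl27), -1.25 (Rpl35), -0.73 (Rpl37a), -0.55 (Rpl37), -1.47 (Rpl41), -1.30 (Rpl4), -1.65 (Rpl6), -1.71 (Rpl7l1), -1.66 (Rpl7), -1.70 (Rplp0) and -1.23 (Rplp2). Fau was at -0.58, Naca at -0.89 and Mrpl33 at -0.038. Rpl39 turned to 0.47, 0.66 and 0.32 and Rpsa to -0.020 as given above, Rps25 to -0.031 without IP replicate 3 (up to 0.34 with another array left out), Rpl41 to -0.59 with the mean of probe sets, and Rps24 to -4.80 without s or x probe sets, which leave it the probe set that is dim in IP. The cause of the other reversals was not tested. Values under the detection limit give only bounds.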
